A study of Homo sapiens with 2 samples.

Results

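The proprotein convertases are serine proteases that cut precursor proteins after basic or other short motifs as they pass through the secretory pathway. The rule took every probe set annotated to exactly 1 of 7 listed genes: PCSK1, PCSK2, PCSK5, PCSK6, PCSK7, FURIN and MBTPS1. The family was selected on measured signals: PCSK5 had been seen higher in the clone in these data. The rule found 12 probe sets for 5 of these genes, of 19775 genes in all. PCSK1 and PCSK2, the convertases of regulated secretory granules, had no single-gene probe set named for them and are not analysed here. Another 2 probe sets carry PCSK6 together with a second gene and were left out.

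The RNA came from SK-N-MC, a human line that the submitters call a neuroepithelioma and that is now placed in the Ewing tumour family. 1 Affymetrix U133 Plus 2.0 array was hybridised with RNA from hyperexpression clone 4, which stably carries human melanotransferrin cDNA in the pCMV-Script vector. A second array held RNA from vector control 1, stably transfected with pCMV-Script without that insert. The vector drives its insert from a cytomegalovirus promoter. Melanotransferrin is a homologue of the iron carrier transferrin that is anchored in the cell membrane, and the comparison addresses what else changes in cells that make too much of it. Each group was 1 clone on 1 array, so no value has a replicate error, no test between the groups exists, and clone and transfection cannot be told apart.

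Convertases are made as inactive precursors, shed their own propeptide and then cut hormones, growth factors, receptors, adhesion proteins and other proteases. FURIN and PCSK7 cycle between the Golgi, the cell surface and endosomes. PCSK5 and PCSK6 are close relatives whose secreted forms can be held at the cell surface by heparan sulfate. MBTPS1, or site-1 protease, is a more distant relative that cuts the membrane-bound transcription factors SREBP and ATF6 in the Golgi. Several convertases act on iron proteins: FURIN cuts the precursor of hepcidin, and PCSK7 can release the transferrin receptor from human cells.

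The promoter stretches of PCSK5 and PCSK7 are shown because each of these genes had a probe set past 2-fold in the clone. Both are the 250 bases before the RefSeq start of the gene, on the strand of the gene, from the GRCh38.p14 table, and capitals mark GGGCGG, the GC box bound by SP1-type factors, or its complement CCGCCC.
PCSK5, chr9:75890423-75890672, plus strand: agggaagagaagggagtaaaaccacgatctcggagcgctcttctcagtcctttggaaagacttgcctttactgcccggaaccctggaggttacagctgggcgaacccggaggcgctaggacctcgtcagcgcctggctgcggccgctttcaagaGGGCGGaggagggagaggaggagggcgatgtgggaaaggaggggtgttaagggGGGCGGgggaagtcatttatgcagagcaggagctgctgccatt
PCSK7, chr11:117232074-117232323, minus strand: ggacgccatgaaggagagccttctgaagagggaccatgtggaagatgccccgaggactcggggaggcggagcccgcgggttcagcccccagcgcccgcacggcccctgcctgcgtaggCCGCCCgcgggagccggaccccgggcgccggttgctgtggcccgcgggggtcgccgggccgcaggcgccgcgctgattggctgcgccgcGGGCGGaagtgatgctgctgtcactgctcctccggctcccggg
Searched on both strands, each window held 2 GC boxes and no TATAAA. The share of all 35116 RefSeq windows of this length with a GC box was 42.6%, and 10.7% had TATAAA. The PCSK7 window held 1 CCAAT, found in 32.01% of windows, and the PCSK5 window held none. A match describes these letters and is not a site shown to be bound.

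Melanotransferrin itself checked the labels. Its probe set annotated to the inserted transcript read 4449.4 in the clone and 18.4 in the vector control, at least 21.4-fold higher, and its other 3 probe sets did not show this. Signals under 208 were treated as background, a floor equal to the 90th percentile over probe sets of keratin-associated proteins, bitter taste receptors and olfactory receptors. Values below it are read as not measured, or as bounds where only 1 array is below it. These background probe sets had a median of 44.0 on the clone array and 67.4 on the control array. Of 7 Ewing family markers with a probe set all 7 were measured, among them CD99, the surface antigen of these tumours, at 32238.8 in the clone and 31464.8 in the control. All 5 fibroblast markers were measured too, beside 5 of 8 neuroendocrine, 2 of 4 endothelial and 0 of 4 hepatocyte markers. Being measured thus does not by itself set Ewing family cells apart from fibroblasts.

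**Figure D1:**
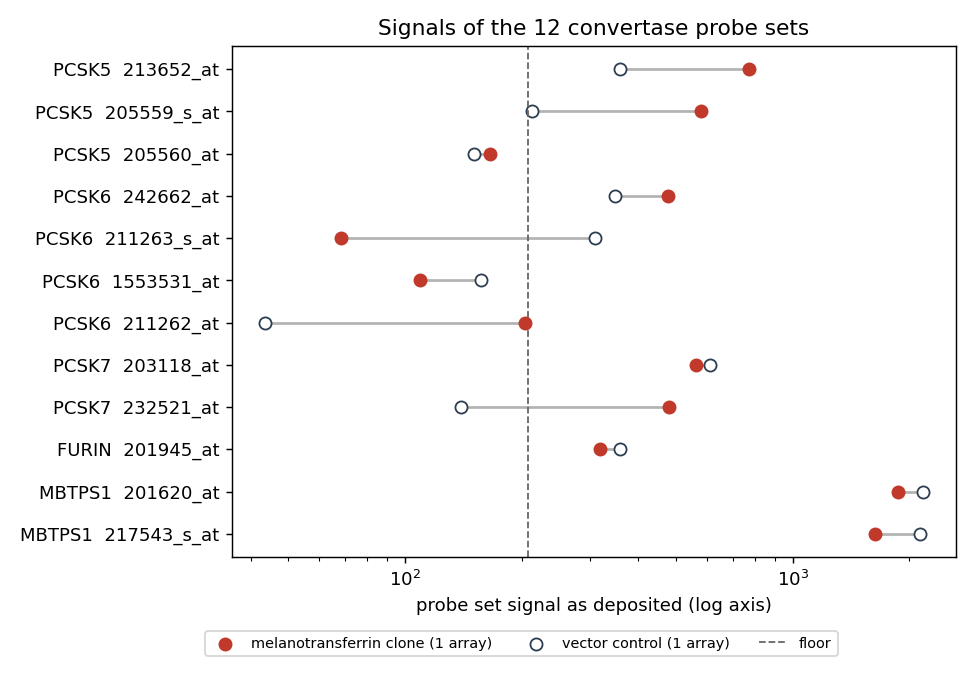
Signal of each of the 12 convertase probe sets (rows) on the clone array (filled points) and the vector control array (open points), on a log axis, with the floor of 208 as a dashed line. Of the 12, 7 lay above the floor on both arrays, 2 on 1 array and 3 on neither; the 2 upper PCSK5 rows had higher signals in the clone.

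PCSK5 was the convertase that was higher in the clone on more than 1 probe set. Among the 5 measured genes, each taken at its brightest probe set, 1 was at least 2-fold higher in the clone, where 1.21% of 12663 measured genes were, and 0 were at least 2-fold lower, where 1.9% were. The 4 other genes had fold differences of 1.09 to 1.38 between the arrays. The median log2 ratio of clone over control was -0.12 for the 5 genes and -0.022 for all measured genes. PCSK5 lies on chromosome 9, where 6.29% of 445 genes above the floor on both arrays were at least 2-fold higher. Since PCSK5 led to the choice of the family, its values are given as a description.

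PCSK5, on chromosome 9, encodes the convertase PC5/6, which processes growth factors of the TGF-beta family such as GDF11. Its brightest probe set, 213652_at, read 770.3 in the clone and 359.6 in the vector control, 2.14-fold higher. Unlike the other PCSK5 probe sets, it is not annotated to a RefSeq transcript. The second, 205559_s_at, read 581.5 in the clone and 212.8 in the control, 2.73-fold higher, and its control signal was just above the floor. The third, 205560_at, read 165.4 in the clone and 150.3 in the control, below the floor on both arrays, although it is annotated to the same RefSeq transcript as the second. The 2 measured log2 ratios, 1.10 and 1.45, differed by 0.35. Of 6259 genes with 2 or more measured probe sets, 60.3% had as wide a range, and the median range was 0.45. The pooled SD of log2 ratios between probe sets of 1 gene was 0.35 over 5387 genes. That SD covers disagreement between probe sets and not variation between cultures or clones.

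For scale, among 2703 probe sets with a mean signal within a factor of 1.25 of that of 213652_at, the central 95% of log2 ratios ran from -1.11 to 1.00. Of 5387 genes with several probe sets that cleared the floor on both arrays, 5 (0.0928%) were at least 2-fold higher on all of them, and PCSK5 was among these. The PCSK5 probe set below the floor on both arrays did not enter this count. The control signal of 205559_s_at, 212.8, cleared the floor of 208 but not the control array's own floor of 221.7. With a floor for each array its log2 ratio was only a bound, 1.39. Nothing is read from these values, since PCSK5 drew attention to the family.

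Of the 10 genes nearest to PCSK5 and measured on both arrays, 5 on each side in RefSeq order, 9 had a higher signal in the clone. Their median log2 ratio was 0.49, with a range of -0.015 to 1.07. RFK, riboflavin kinase, the nearest on 1 side, read 6786.2 in the clone and 3225.7 in the control, a log2 ratio of 1.07. OSTF1, an SH3 domain protein and the nearest on the other side, read 601.8 in the clone and 590.7 in the control, a log2 ratio of 0.027. Over 445 genes of chromosome 9 the median log2 ratio was 0.48, the highest of 23 chromosomes, and 90.8% of them lay above the median of all genes. PCSK5 stood 0.62 above that chromosome median. Of the 445 genes, 28 (6.29%) were at least 2-fold higher, and 18 (4.04%), PCSK5 included, were as high as PCSK5 or higher. The part of this chromosome-wide difference in the PCSK5 value was not tested.

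PCSK6, on chromosome 15, encodes PACE4, which activates NODAL-type ligands in the embryo. Its 4 probe sets did not give 1 direction. The brightest, 242662_at, read 478.1 in the clone and 347.7 in the control, a log2 ratio of 0.46. By contrast 211263_s_at read 68.3 in the clone and 308.8 in the control, so it was at least 1.48-fold lower. The other 2 were below the floor on both arrays: 211262_at read 203.7 in the clone, just under the floor, and 43.5 in the control, and 1553531_at read 109.4 in the clone and 157.1 in the control. The 2 measured probe sets lay at least 1.03 apart on the log2 scale, and 11.7% of 6259 genes with 2 or more measured probe sets had as wide a range. The 7 nearest measured genes had a median log2 ratio of -0.030.

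PCSK7, on chromosome 11, encodes PC7, a membrane-bound convertase. Its RefSeq-annotated probe set, 203118_at, read 563.1 in the clone and 612.4 in the control, a log2 ratio of -0.12. The other, 232521_at, read 480.6 in the clone and 139.5 in the control, which is below the floor, so it was at least 2.31-fold higher. The gap of at least 1.33 between the 2 was as wide or wider in 4.87% of genes with several measured probe sets, against a median gap of 0.45. Which part of the transcript each probe set reads was not tested. The 10 neighbours of PCSK7 had a median log2 ratio of -0.043. TFRC, the transferrin receptor, which was named after its values were seen, read 23232.2 in the clone and 27936.4 in the control on its brightest probe set, a log2 ratio of -0.27. Its other measured probe sets had log2 ratios of -0.18 and -0.84 and, where the control was below the floor, a bound of 0.30.

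FURIN, on chromosome 15, encodes the most widely expressed convertase and had 1 probe set, 201945_at. It read 319.2 in the clone and 357.8 in the control, a log2 ratio of -0.16, in the middle of probe sets of like brightness, of which 54.7% were as high or higher. MBTPS1, on chromosome 16, read well above the floor on both probe sets, with signals of 1864.9 in the clone and 2161.9 in the control on 201620_at and of 1626.6 in the clone and 2127.1 in the control on 217543_s_at. Both probe sets were lower, and their log2 ratios of -0.21 and -0.39 differed by 0.17. Of probe sets of like brightness, 23.1% and 11.1% were as low or lower, so neither stood apart. Neighbours of FURIN and MBTPS1 had median log2 ratios of 0.034 and -0.11.

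**Figure D2:**
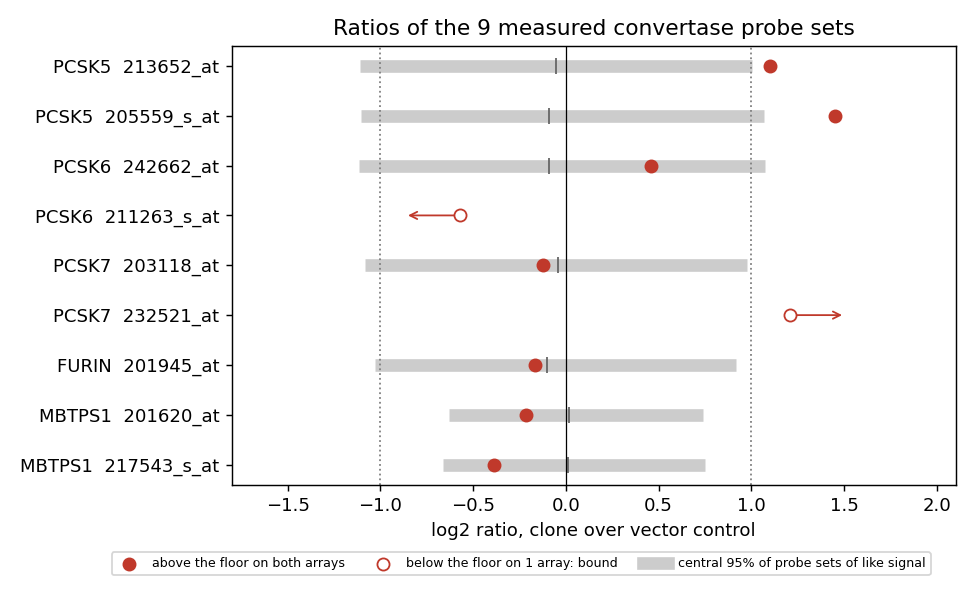
Log2 ratio of clone over vector control for the 9 measured convertase probe sets, with open points and arrows for bounds, and grey bars for the central 95% of probe sets of like brightness. Dotted lines mark 2-fold; the 2 PCSK5 points (1.10 and 1.45) lie to the right of their bars, and the PCSK7 bound of 1.21 lies apart from the other PCSK7 point at -0.12.

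Over probe sets the convertases were split by gene. Of 9 measured probe sets 3 exceeded 2-fold in the clone, 2 of PCSK5 and 1 of PCSK7, where 1.24% of 23996 measured probe sets were. The PCSK5 values led to the choice of the family, so this count is only a description. The PCSK7 value is a bound, since its control signal lay below the floor. The count at least 2-fold lower was 0, where 1.93% of probe sets were. The 9 are not 9 independent values, since probe sets of a gene read the same RNA. The signs of the small ratios depended on scaling. Scaling to spikes shifts all genes alike, whereas loess shifts them by their signal. Centred on the hybridisation spikes, PCSK7, FURIN and MBTPS1 were higher in the clone, with log2 ratios of 0.38, 0.34 and 0.29. Centred on the poly-A spikes PCSK6 was lower, at -0.15. PCSK5 was higher under every scaling tried, with log2 ratios from 0.49 to 1.60, but with a floor 2 times as high its control signals fell below the floor and its ratio became a bound of 0.89, under 2-fold.

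**Figure D3:**
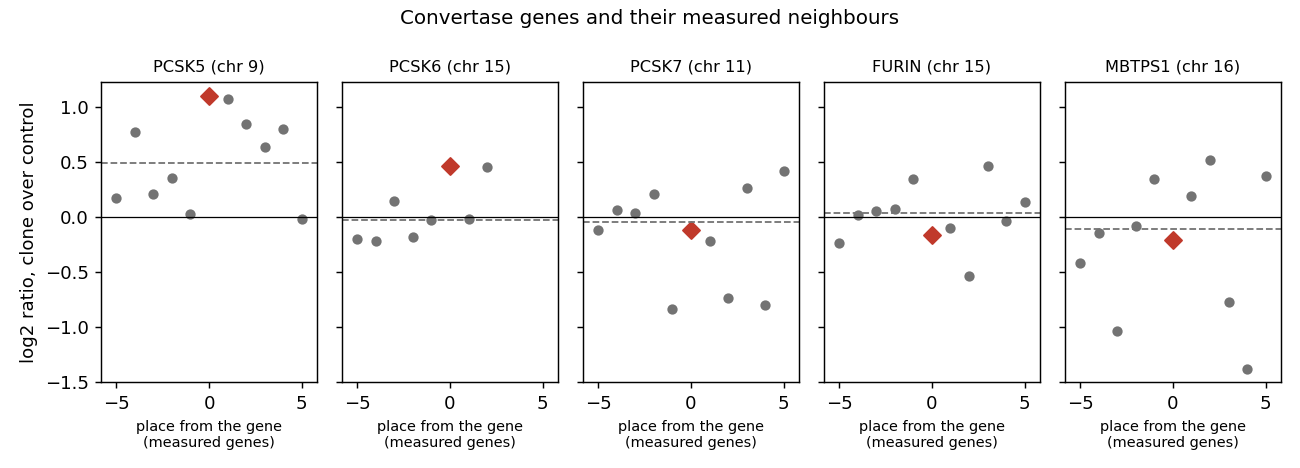
Log2 ratio of clone over vector control for each convertase (red diamond, place 0) and its nearest genes measured on both arrays (grey points, up to 5 on each side in RefSeq order, PCSK6 having only 7 in all), with their median as a dashed line. The neighbours of PCSK5 have a median of 0.49, and those of the other 4 genes have medians between -0.11 and 0.034.

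The 10 lists of genes around the convertases held 187 genes, of which 120 were measured. Of the 120, 3 were past 2-fold upward and 3 downward, where 1.21% and 1.9% of all genes were. The median log2 ratio over the 120 was -0.086, beside -0.022 for all genes.

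Of 5 genes whose products bind or block convertases, 4 were measured and 0 were 2-fold apart in either direction. The list median was -0.47, beside -0.022 for all genes. It rested mostly on signals near the floor: with the floor 2 times as high only PCSK1N stayed measured. PCSK1N, or proSAAS, the inhibitor of PCSK1, read 1840.4 in the clone and 2444.5 in the control, a log2 ratio of -0.41. SERPINB8, a serpin that inhibits FURIN, read 237.9 in the clone, near the floor, and 379.2 in the control, a log2 ratio of -0.67. GBP2, an interferon-induced GTPase that lowers FURIN activity, had a log2 ratio of -0.54 from signals near the floor, 209.8 in the clone and 304.6 in the control. SCG5, or 7B2, the chaperone of PCSK2, was below the floor at 23.0 in the clone and 13.3 in the control. GBP5, a relative of GBP2, read 69.6 in the clone and 220.5 in the control, which gives only a bound of -0.084 on the log2 scale. Under hybridisation spike scaling, which added 0.50 to every log2 ratio, the list median was 0.028 and that of all genes 0.48.

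Granins were near or below the floor except for SCG2, and the enzymes that finish peptides differed in direction. Of 5 granins only SCG2, a granule matrix protein, was above the floor on both arrays, at 758.5 in the clone and 404.8 in the control, a log2 ratio of 0.91. CHGA and CHGB, the chromogranins, were below the floor in the clone at 104.7 and 14.8, and just above it in the control at 276.5 and 216.0. Over all genes 442 were above the floor on the clone array only and 1426 on the control array only, and the part of this in the granin values was not tested. CPE, the carboxypeptidase that trims peptides after a convertase has cut, was lower on both measured probe sets, with log2 ratios of -0.81 and -0.76, and read 1790.3 in the clone and 3145.9 in the control on the brighter. PAM, the enzyme that amidates peptides, was higher on 3 of 3 measured probe sets, with log2 ratios of 0.37, 0.21 and 0.29. AEBP1, a carboxypeptidase-like protein, had a log2 ratio of 0.55.

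Among the carriers that move convertases, 10 were measured and 8 lay below the median of all genes, with a list median of -0.089. When a gene took the median over its measured probe sets, 6 of 10 lay below. The list median was then -0.13, beside -0.047 for all genes. PACS1, the sorting adaptor that returns FURIN to the Golgi, read 854.3 in the clone and 534.4 in the control, a log2 ratio of 0.68, on a probe set whose probes match several transcripts. GGA3, a Golgi coat adaptor, had log2 ratios of -0.54 and -1.23 on its 2 measured probe sets.

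**Figure D4:**
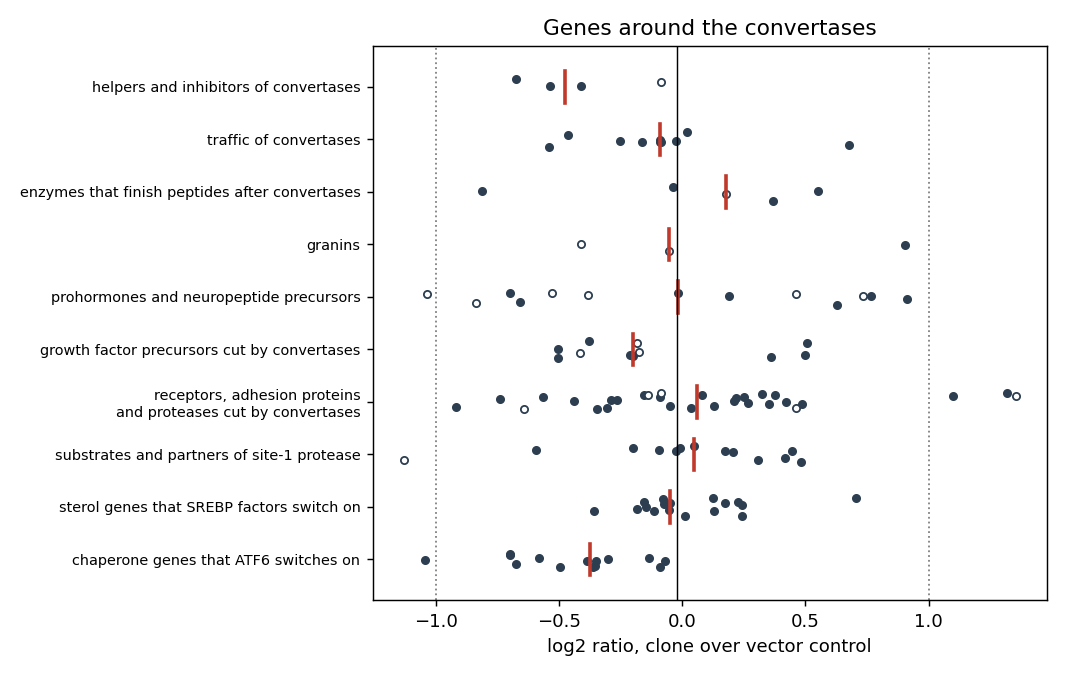
Log2 ratio of clone over vector control for the measured genes of 10 lists around the convertases, 1 point a gene, open where only a bound is known, with the list median as a red bar. The black line is the median of all genes (-0.022) and dotted lines mark 2-fold; all 14 chaperone genes, at their brightest probe sets, lie left of the black line.

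Substrates showed no single direction. Of 34 prohormones and neuropeptide precursors 13 were measured, with a median log2 ratio of -0.017. NTS, the precursor of neurotensin, read 1310.5 in the clone and 697.0 in the control, a log2 ratio of 0.91. ADM, the precursor of the vasodilator adrenomedullin, had a log2 ratio of 0.76. NPPA, the atrial natriuretic peptide precursor, was at least 2.05-fold lower, at 75.2 in the clone and 426.9 in the control. HAMP, the hepcidin precursor cut by FURIN, read 346.1 in the clone and 189.5 in the control, a bound of 0.73 on the log2 scale. It was named after its values were seen.

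Growth factor precursors had 11 of 32 listed members measured and 8 below the median of all genes, with a list median of -0.20 and 0 past 2-fold. Of the 11, TGFB2, NODAL and SEMA3A were below the floor in the clone, so their bounds could only be negative and carry no weight for direction. The 8 members that cleared the floor in clone and control alike had a median of -0.21. With the floor 2 times as high 8 were measured, of which 5 lay below the median of all genes. IGF1, insulin-like growth factor 1, was lower on 4 of 4 measured probe sets, with log2 ratios from -0.63 to -0.38, reading 2659.9 in the clone and 3774.2 in the control on the brightest. BMP7, a bone morphogenetic protein, was higher on 4 of 4, with log2 ratios from 0.32 to 0.65, the last a bound.

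Receptors, adhesion proteins and proteases had 30 of 41 members measured and 16 with a ratio above the median of all genes. Their own median was 0.059. This side depended on the choice of probe set. When a gene took the median over its measured probe sets, 17 of 30 lay below the median of all genes. The list median was then -0.091, beside -0.047 for all genes. The 3 members at least 2-fold higher were COL5A1, EDA and ANGPTL4, and 0 were at least 2-fold lower, beside 1.21% and 1.9% of all genes. COL5A1, a collagen V chain whose propeptide is cut by convertases, was 2.49-fold higher at 4308.0 in the clone and 1729.0 in the control. It lies on chromosome 9, as PCSK5 does. EDA, the ligand ectodysplasin, on its brightest probe set was 2.14-fold higher but its other probe set, below the floor in the clone, had a log2 bound of -0.63. ANGPTL4, an inhibitor of lipoprotein lipase, was at least 2.56-fold higher, with a log2 bound of 0.0070 on its second probe set. MMP14, a membrane-bound metalloprotease activated by FURIN and named here after its values were seen, read 571.5 in the clone and 1080.3 in the control, and both its measured probe sets were lower, with a log2 ratio of -0.92 and a bound of -0.65.

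The list of substrates and partners of MBTPS1, which holds membrane-bound transcription factors and the proteins that escort or retain them, had 13 of 15 members measured. Its median log2 ratio was 0.047, with 0 members past 2-fold upward and 1 past it downward. When a gene took the median over its measured probe sets, the list median was -0.12, beside -0.047 for all genes. SREBF2, the sterol-sensing SREBP-2, read 1894.4 in the clone and 1929.1 in the control, a log2 ratio of -0.026. SREBF1, its lipogenic relative, had a log2 ratio of 0.48. ATF6, the stress sensor of the endoplasmic reticulum, had one of 0.047 on its brightest probe set and of 0.023, -0.33 and -0.26 on others. ATF6B was at least 2.19-fold lower on its brightest probe set, at 126.0 in the clone and 455.2 in the control, but its other probe set, below the floor in the control, had a log2 bound of 0.63. CREB3L4, a related membrane-bound factor, had a log2 ratio of -0.59.

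Genes that SREBP and ATF6 switch on were read as further lists. Of 17 measured sterol and fatty acid genes, 8 lay above and 9 below the median of all genes, with a list median of -0.048. With the median over the probe sets of each gene it was 0.026, beside -0.047 for all genes. At the brightest probe sets the highest value was 0.70 for MVD and the lowest -0.36 for TM7SF2, both enzymes of cholesterol synthesis. On their brightest probe sets all 14 chaperone and folding genes of the ATF6 branch lay below the median of all genes, with a list median of -0.37. When a gene took the median over all its measured probe sets, 13 of 14 did. Other probe sets went the other way for DNAJC3, XBP1 and HSPA5, with log2 ratios of 0.85, 0.31 and 0.19. The gene at least 2-fold lower was SDF2L1, at 460.7 in the clone and 950.9 in the control. PDIA4, a disulfide isomerase, read 5624.2 in the clone and 9123 in the control, a log2 ratio of -0.70. That stress genes were lower had been seen in these data before this list was made, so it is not independent support. The difference between the sterol and chaperone lists was not tested. Under hybridisation spike scaling the chaperone median was 0.13, still below the all-gene median of 0.48.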

How the data were processed

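Per the labels, total RNA from 2 stably transfected SK-N-MC lines was measured on 1 array each. The authors deposited a linear intensity for each probe set and array. GCOS version 1.3 was the software, per the submitters' processing notes. How probes were summarised, the scaling target and any build are not given in the sources used for this text. As deposited, each array had a mean signal of 1000.12 after dropping the lowest and highest 2% of 54675 probe sets, so a change shared by most transcripts cannot be seen.

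Probe sets were named from the platform annotation: 41097 had 1 gene, 1801 several and 11777 none here. Gene IDs of 41043 of the first kind matched the GRCh38.p14 RefSeq table, which gave current symbols together with chromosomes and gene order. A gene took the ratio of its brightest probe set (mean of both arrays), and ratios against a signal below the floor used the floor. Of 12663 genes measured in this way, 10795 cleared the floor on both arrays. With 1 array per group no test was possible, and genes were counted at a ratio of 2. Having only 2 arrays limits the precision of all values.

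The members, lists and naming rule were chosen with earlier results of these data known. The rule named list members past 2-fold, the 2 largest ratios above the floor on both arrays in each list, and PCSK1N, SCG5, CPE, SREBF1, SREBF2 and ATF6; others named are examples picked after their values were seen. The promoter table holds 250 bases before and 50 after each start; only the bases before the start were used. Alternatives changed the scaling, the floor, an added offset and the probe set of a gene. The work used pandas 2.3.3 and numpy 2.4.6 in Python 3.11.15, the loess of statsmodels 0.14.6, scipy 1.17.1 for trimmed means, and matplotlib 3.10.9. The code for the ratios and counts was tested on simulated data. How reliable calls near the floor or near 2-fold are on these 2 arrays was not tested.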

Additional observations from a re-analysis of the deposited data

How the results depend on the processing

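The count of convertase genes at least 2-fold higher in the clone was 1 as deposited and in 8 of 10 alternatives. It was 0 with the poly-A spikes as scale, since that scaling lowered every ratio by 0.61, and 0 with the floor 2 times as high, where PCSK5 had only a bound. The count at least 2-fold lower was 0 in all 10. Over all genes 153 were at least 2-fold higher and 240 lower; these counts were 959 and 32 with the hybridisation spikes, 13 and 1964 with the poly-A spikes, 350 and 1065 with the floor lowered 2 times, 71 and 47 with the floor 2 times as high, and 702 and 1705 with an offset of 50 and no floor. With a floor for each array the lower count was 401. As the median of its measured probe sets PCSK6 had a log2 ratio of -0.055 and PCSK7 of 0.54, because their probe sets disagreed. The bound of PCSK7 on 232521_at was 0.21 with the floor 2 times as high. No paired analysis was possible because each group had 1 array.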
